A study of Mus musculus with 5 samples.

Results

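Liver cells from the library labelled DKO were set against liver cells from the library labelled WT, both on a background the labels call ApoE. The members are all cells of the joint count table of these 2 libraries, split by the condition the authors recorded for each cell: 4331 cells labelled DKO and 4331 labelled WT, or 8662 of the 14878 cells in the series. The series title concerns epsins of the liver, and the protocol mentions 3 mice and a liver DKO line, without spelling the abbreviation out, naming a Cre driver, an age or a sex, or saying how the mice relate to the libraries. Each group is thus 1 library. No difference below has a replicate check, no test was possible, and every interval in brackets covers counting error alone.

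Epsins are adaptor proteins of the plasma membrane that hold clathrin and ubiquitinated cargo together while a coated pit forms. Hepatocytes, the epithelial cells that make up most of the liver, clear lipoproteins from the blood by such receptor-mediated uptake, secrete most plasma proteins and make bile acids. They divide this work along the lobule, with periportal cells near the incoming blood and pericentral cells near the outflow vein. Kupffer cells (resident macrophages), sinusoidal endothelial cells and lymphocytes lie between them. In the assay, single cells are caught in droplets and each captured RNA molecule is counted once by its unique molecular identifier (UMI), read near its 3′ end.

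The table held 10999072 UMIs labelled DKO (median 1636 per cell) and 9497896 labelled WT (median 1552), in cells with at least 500 UMIs and at most 20% mitochondrial UMIs. The libraries shared 4 cell barcodes. Levels are UMIs scaled to a class total of 1000000 (CPM), and a ratio is the CPM labelled DKO over the CPM labelled WT. "Higher" and "lower" mean that this ratio is above or below 1. The epsin transcripts do not bear the label out. Epn1 had 71.2 against 58.7 CPM in hepatocytes (ratio 1.21, 1.08 to 1.36) and was higher in 7 of 9 clusters. Epn2 had 8.62 against 7.64 CPM (1.13, 0.805 to 1.59). A 3′ count checks nothing if the deletion lies elsewhere in the gene, and the sources used here do not give its place. Apoe stood at 32.7 against 36.3 CPM (0.903, 0.769 to 1.06). The libraries are therefore called by their labels throughout.

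Hepatocytes were a smaller part of the library labelled DKO, and the immune types a larger one. By the authors' calls, hepatocytes made up 78.1% (76.8 to 79.3) of the library labelled DKO and 93.3% (92.5 to 94.0) of the other. T cells numbered 386 against 86, B cells 285 against 52, Kupffer cells 162 against 79, neutrophils 51 against 17 and endothelial cells 65 against 57. Since shares add up to a whole, the same cells were also counted without the hepatocytes, as shares of 949 and 291 cells. There, T cells were 40.7% against 29.6% (ratio 1.38, 1.09 to 1.76) and B cells 30.03% against 17.9% (1.68, 1.25 to 2.30). Kupffer cells turned to 17.1% against 27.1% (0.629, 0.478 to 0.834), and endothelial cells to 6.85% against 19.6% (0.350, 0.241 to 0.508). Neutrophils were 5.37% against 5.84% (0.920, 0.523 to 1.70). With this denominator the T and B cell ratios stayed above 1, the Kupffer ratio changed side, and the neutrophil interval held 1.

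**Figure D1:**
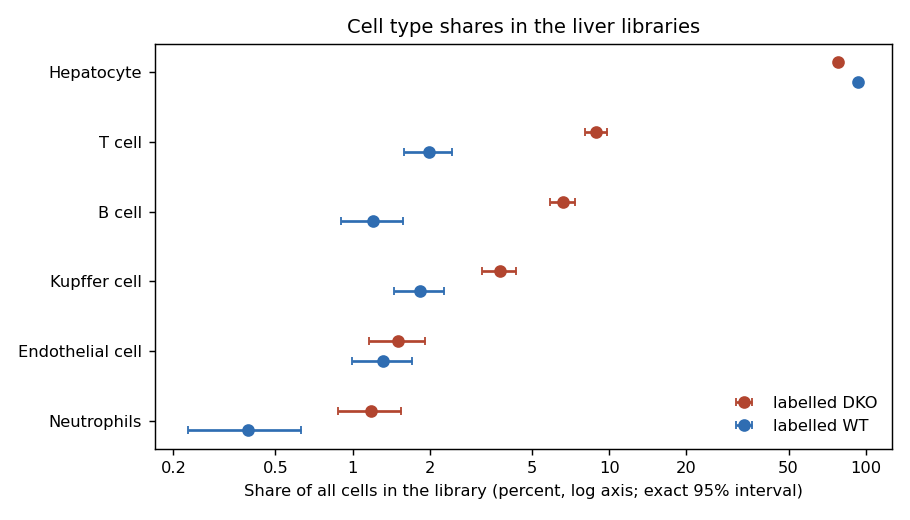
Share of all cells in each library (percent, log axis) for the 6 types the authors called, with exact 95% binomial intervals. T cells, B cells, Kupffer cells and neutrophils sit to the right in the library labelled DKO, hepatocytes to the left, and the endothelial intervals overlap.

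The hepatocytes themselves were spread differently over the authors' clusters. The class compared below leaves out clusters 14, 16 and 18, which erythroid, pancreatic acinar and cholangiocyte genes lead, and holds 3213 cells labelled DKO and 4015 labelled WT. Cluster 2 was 24.6% of the class labelled DKO and 11.9% of that labelled WT. Cluster 7, led by the periportal genes Cyp2f2 and Gls2, was 14.4% against 5.33%, and cluster 5, led by the pericentral genes Glul and Cyp1a2, 12.6% against 7.55%. Clusters 3 and 6 went the other way, at 4.54% against 16.5% and 2.77% against 10.2%. The subtype the authors named HC3 Alb hi, 823 against 1260 cells, shows what this does to a named subtype. Its cells had a median of 4273 against 1824.5 UMIs and a median mitochondrial share of 13.6% against 3.85%. The subtype HC Hnf4a hi, at 733 against 576 cells, was close in both measures, with 5161 against 4552.5 UMIs and 14.9% against 14.3%. In HC1 Alb hi the transcript Gm42418, annotated over ribosomal RNA sequence, took 161390 against 39860 CPM. Depth and mitochondrial share thus moved with the label inside most hepatocyte clusters, and their part in the results below was not tested. Clusters 5 and 7 came nearest to matched depth, with medians of 4239 against 4336 and 5308 against 5281 UMIs. Their mitochondrial shares were 13.3% against 15.3% and 14.4% against 15.3%. Cluster 8, also deep, was less matched, at 5845 against 4796 UMIs and 16.4% against 13.3%. For most gene lists below, the medians in clusters 5, 7 and 8 are given beside that of the class. They often lay on the other side of 0. Fatty acid and triglyceride synthesis, for example, had 0.06 in the class and -0.06, -0.08 and -0.08 in these clusters.

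Few hepatocyte genes differed much in summed counts. Of 8282 genes with at least 100 UMIs over both libraries, 189 (2.28%) were at least 1.5-fold higher and 223 (2.69%) at least 1.5-fold lower in the library labelled DKO, together 4.97%, around a median log2 ratio of 0.00. With mitochondrially encoded and ribosomal RNA-linked genes left out of the totals, the split was 328 higher and 137 lower. The genes called ribosomal RNA-linked here are Gm42418, AY036118, Cmss1, Cdk8, Lars2 and Camk1d. At any size, 4151 genes were higher and 4131 lower, and the counting interval lay above 1 for 1318 and below 1 for 1528 of the 8282. These are the counts to hold the lists against. In clusters 5, 7 and 8 taken alone, 153 genes were higher and 98 lower past that fold, and 66 and 35 of these were among the 189 and the 223. Among the 6638 genes with at least 200 UMIs, 610 lay on the same side of 1 in every cluster measured, 239 higher and 371 lower, and 58 and 77 of them were past the fold. The group medians by cluster show how far each group held together.

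**Figure D2:**
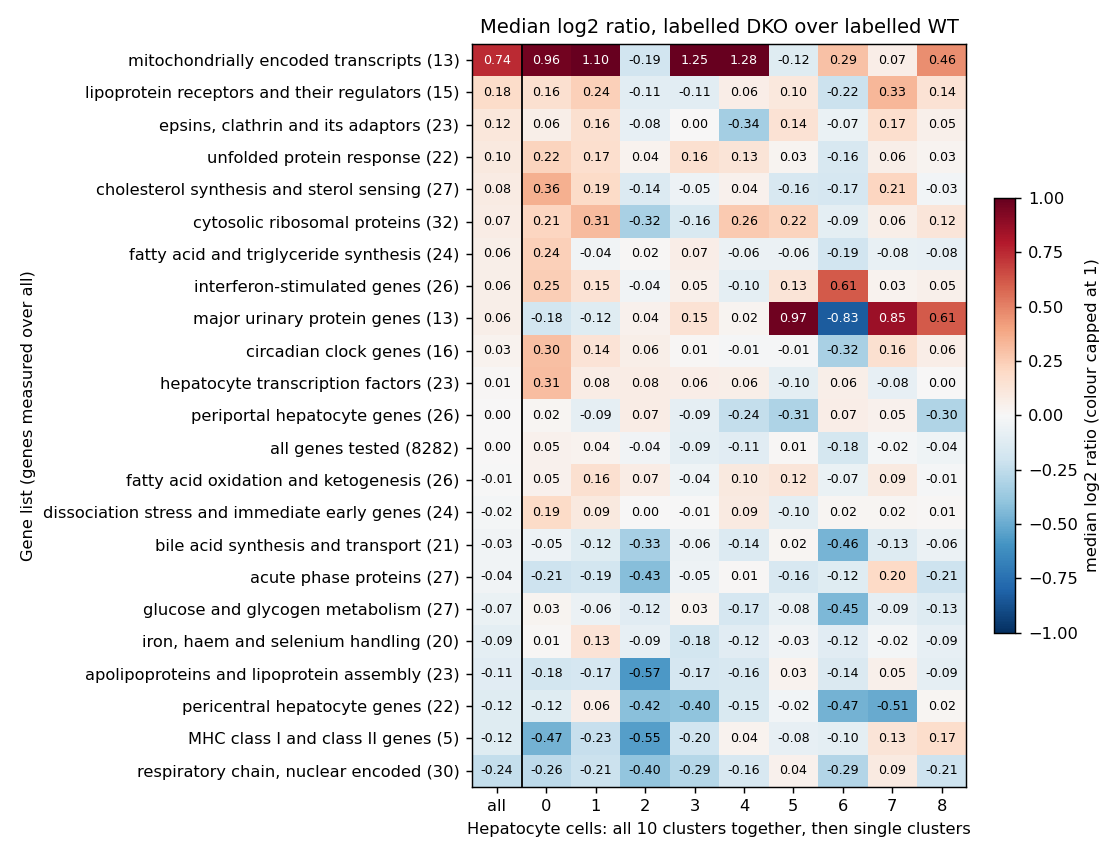
Median log2 ratio of each gene list in hepatocytes, for the class as a whole (first column) and for the larger single clusters (0 to 8), with the number of genes measured in brackets. Mitochondrially encoded transcripts run from -0.19 in cluster 2 to 1.28 in cluster 4, while nuclear-encoded respiratory chain genes run from -0.40 in cluster 2 to 0.09 in cluster 7.

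Genes of lipoprotein uptake leaned to the library labelled DKO. Of 15 measured lipoprotein receptors and regulators, 11 were higher and 4 lower (median log2 ratio 0.18), 1 past the fold, and 5 intervals lay above 1 and 0 below. Lrp1, the large endocytic receptor for remnants and other ligands, had 226 against 173 CPM (1.30, 1.22 to 1.39) and was higher in 9 of 9 clusters. Lrp5, a relative that serves as a Wnt co-receptor, had 13.3 against 8.21 CPM (1.62, 1.20 to 2.20). Sdc1, a heparan sulfate proteoglycan that also binds remnants, had 80.0 against 68.4 CPM (1.17, 1.05 to 1.30), higher in 6 of 9. The list stood at 0.10, 0.33 and 0.14 in clusters 5, 7 and 8 and at -0.22 in cluster 6, so single clusters did not all share its direction. Summed over all cells outside the hepatocyte type, plasma cells included, Lrp1 was at 0.716 and Sdc1 at 0.554.

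Clathrin-coat genes split. The list of epsins, clathrin and adaptors held 16 higher and 7 lower genes of 23 (median 0.12), 0 past the fold, and stood at 0.14, 0.17 and 0.05 in clusters 5, 7 and 8. The AP-2 subunit Ap2a2 had 53.8 against 40.8 CPM (1.32, 1.15 to 1.51), and Hip1r, which links coats to actin, 21.8 against 15.6 CPM (1.40, 1.12 to 1.75). Snx9, a membrane-bending protein, was at 1.29 (1.11 to 1.52). On the other side, Picalm, a clathrin assembly protein, had 103 against 135 CPM (0.761, 0.698 to 0.830), lower in 9 of 9 clusters, and the clathrin heavy chain Cltc 128.04 against 151.7 CPM (0.844, 0.780 to 0.914).

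Lipid synthesis showed no direction that held over clusters. In cholesterol synthesis and sterol sensing, 20 of 27 genes were higher (median 0.08) and 0 were past the fold, with medians of -0.16, 0.21 and -0.03 in clusters 5, 7 and 8 and below 0 in 5 of 9 clusters. Lss, the lanosterol synthase, was at 1.45 (1.12 to 1.89) and Scap, a sterol-sensing escort protein, at 1.32 (1.10 to 1.58). Npc2, which passes cholesterol out of lysosomes, was lower in 9 of 9 clusters, at 83.3 against 109.7 CPM (0.759, 0.690 to 0.836). Among 24 genes of fatty acid and triglyceride synthesis, 15 were higher and 9 lower (median 0.06), but the medians in clusters 5, 7 and 8 were -0.06, -0.08 and -0.08. Srebf1, their main regulator, was at 1.21 (1.08 to 1.36), while Scd1, the stearoyl-CoA desaturase, had 1054 against 1293 CPM (0.815, 0.793 to 0.837) and Acaca, the first committed enzyme, 188 against 220.1 CPM (0.852, 0.798 to 0.910).

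Apolipoproteins differed in direction by gene. Apob, the backbone of very low density lipoprotein, had 3737 against 3297 CPM (1.13, 1.12 to 1.15), and Mttp, which loads it with lipid, 174 against 152 CPM (1.14, 1.06 to 1.23). The high density lipoprotein genes Apoa1 and Apoa2 were lower, Apoa1 at 4442 against 5247 CPM (0.847, 0.835 to 0.858) and Apoa2 at 15335 against 21177 CPM (0.724, 0.719 to 0.729). Apoa4 had 183 against 97.7 CPM (1.88, 1.73 to 2.04), but it is a leading gene of cluster 7, whose share was larger in the library labelled DKO. The list as a whole had 7 higher and 16 lower genes of 23 (median -0.11), with 0.03, 0.05 and -0.09 in clusters 5, 7 and 8 against -0.57 in cluster 2. With the cells of clusters 5, 7 and 8 pooled, the median turned to 0.15.

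Of 21 bile acid genes, 14 were lower (median -0.03), 10 with an interval below 1 and 0 past the fold. Their medians in clusters 5, 7 and 8 were 0.02, -0.13 and -0.06. Cyp7a1, whose enzyme sets the pace of bile acid production, had 154 against 205.1 CPM (0.752, 0.701 to 0.807), Cyp7b1, of the alternative pathway, 68.9 against 93.6 CPM (0.736, 0.662 to 0.817), and Cyp2c70, which makes the muricholic acids of mice, 631 against 915 CPM (0.689, 0.666 to 0.713). All 3 were lower in 9 of 9 clusters. Slc10a1, the uptake transporter for bile salts, was at 1.10 (1.06 to 1.15), higher in 5 of 9. Pericentral genes were lower in 16 of 22 cases (median -0.12), with Cyp2c37 at 214 against 356 CPM (0.601, 0.568 to 0.637) and Rgn at 0.698 (0.681 to 0.716), both lower in 9 of 9 clusters. The pericentral list stood at -0.02 and 0.02 in clusters 5 and 8, against -0.51 in cluster 7. Among periportal genes, 14 were higher and 12 lower (median 0.00), with -0.31, 0.05 and -0.30 in clusters 5, 7 and 8. Pigr, the receptor that carries IgA into bile, had 1032 against 742 CPM (1.39, 1.35 to 1.44) and Arg1, which ends the urea cycle, 1066 against 786 CPM (1.36, 1.32 to 1.40), both higher in 9 of 9.

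Fatty acid oxidation and ketogenesis held 13 higher and 13 lower genes (median -0.01), 0 past the fold. Ppara, the fatty acid sensor, had 471 against 370.5 CPM (1.27, 1.21 to 1.33), while Decr1, an enzyme that its protein regulates, had 121 against 166 CPM (0.726, 0.671 to 0.786). Glucose and glycogen genes were 9 higher and 18 lower (median -0.07), 4 with an interval above 1 and 9 below, and stood at -0.08, -0.09 and -0.13 in clusters 5, 7 and 8. G6pc, which releases glucose, stood at 873 against 874 CPM (0.999, 0.968 to 1.03), and Pck1, an entry enzyme of gluconeogenesis, at 2895 against 2554 CPM (1.13, 1.11 to 1.15). Of the 16 clock genes 8 were higher and 8 lower (median 0.03). Per1 was at 1.42 (1.11 to 1.82) and Nr1d1 at 1.31 (1.07 to 1.60). Both cycle with the hour of day, and the hour of sampling is not given in the labels. Among 23 hepatocyte transcription factors (12 higher, 11 lower, median 0.01), Hnf4a and Cebpa were higher in 9 of 9 clusters, at 289 against 229 CPM (1.26, 1.19 to 1.34) and 96.1 against 68.4 CPM (1.40, 1.26 to 1.56).

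Chaperones of the endoplasmic reticulum leaned to the library labelled DKO. Of 22 measured genes of the unfolded protein response, 15 were higher and 7 lower (median 0.10), 2 past the fold, with 11 intervals above 1 and 3 below. Their medians in clusters 5, 7 and 8 were 0.03, 0.06 and 0.03. Pdia4, a disulfide isomerase, had 112 against 63.5 CPM (1.76, 1.59 to 1.96), and Hyou1, a large chaperone, 43.6 against 28.7 CPM (1.52, 1.29 to 1.78), both higher in 9 of 9 clusters. Hspa5, the chaperone BiP, was at 412 against 364 CPM (1.13, 1.08 to 1.19), and Calr, a lectin chaperone, at 397 against 357 CPM (1.11, 1.06 to 1.17). Manf was the one furthest below, at 67.8 against 86.5 CPM (0.783, 0.703 to 0.872). The stress transcription factors stood at 1.21 (1.02 to 1.43) for Atf4 and 0.914 (0.637 to 1.31) for Ddit3. In T cells Hspa5 was at 0.947 (0.715 to 1.27), and in B cells at 0.957 (0.593 to 1.62).

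Many promoters of this group carry the endoplasmic reticulum stress element, searched here as CCAAT, 9 bases of any kind and CCACG on both strands in the 250 bases before each gene's start. It was present in 8 of the 19 listed genes with a promoter in the RefSeq table (42.1%), against 35 of 27025 genes in all (0.130%). The windows of 90 bases below are from RefSeq on GRCm38.p6, each read 5′ to 3′ on the gene's strand, with the element in capitals, so that genes with and without it can be compared; for Calr the match is on the opposite strand, and Pdia4 has no match and is shown up to its start.
Hspa5 (chr2:34771989-34772078, + strand): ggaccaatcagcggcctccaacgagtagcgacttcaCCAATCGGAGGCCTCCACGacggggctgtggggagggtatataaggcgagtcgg
Calr (chr8:84847040-84847129, - strand): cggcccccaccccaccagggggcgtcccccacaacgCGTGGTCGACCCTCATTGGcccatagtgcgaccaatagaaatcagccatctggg
Dnajc3 (chr14:118937791-118937880, + strand): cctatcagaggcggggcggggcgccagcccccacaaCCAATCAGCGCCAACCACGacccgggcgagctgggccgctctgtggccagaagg
Pdia6 (chr12:17266455-17266544, + strand): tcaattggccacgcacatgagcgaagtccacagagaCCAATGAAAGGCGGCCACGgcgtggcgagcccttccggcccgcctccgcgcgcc
Pdia4 (chr6:47813513-47813602, - strand): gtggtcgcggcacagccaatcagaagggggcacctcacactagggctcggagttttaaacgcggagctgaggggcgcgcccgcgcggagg
The element did not sort the group by ratio. Of the 8 genes that hold it, 6 were higher and 2 lower, and of the others with a promoter in the table, 7 were higher and 4 lower. Pdia4, with the largest ratio, had no match, and Pdia6, with one, was at 0.917 (0.854 to 0.984), while Dnajc3, an inhibitor of a stress kinase, was at 1.13 (1.07 to 1.21).

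Secreted defence proteins were mixed. Of 27 acute phase genes, 10 were higher and 17 lower (median -0.04), with -0.16, 0.20 and -0.21 in clusters 5, 7 and 8. The serum amyloid genes Saa1 and Saa2 stood at 101 against 76.7 CPM (1.31, 1.19 to 1.45) and 69.7 against 44.2 CPM (1.58, 1.39 to 1.79), each higher in 5 of 9 clusters. Orm1, the orosomucoid, had 942 against 1378 CPM (0.684, 0.665 to 0.703), lower in 9 of 9, and Hamp, the iron hormone hepcidin, 2386 against 3480 CPM (0.686, 0.674 to 0.698), lower in 8 of 9. Trf, the iron carrier of plasma, was at 1.12 (1.11 to 1.14). Interferon-stimulated genes were 16 higher and 10 lower of 26 (median 0.06), with Ifit1 at 14.2 against 7.64 CPM (1.86, 1.37 to 2.53) and Ifi27 at 123 against 191 CPM (0.645, 0.597 to 0.696). The MHC class I gene H2-K1 had 765 against 943 CPM (0.812, 0.786 to 0.838), lower in 9 of 9 clusters. The early-response genes Zfp36 and Klf9 were higher in 9 of 9, at 1.44 (1.31 to 1.58) and 1.22 (1.15 to 1.30), in a list that held 11 higher and 13 lower genes (median -0.02).

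The clearest group difference was between the 2 genomes that encode the respiratory chain. Of 13 mitochondrially encoded transcripts 12 were higher (median 0.74), 8 of them past the fold, and their summed level was 113609 against 79769 CPM. The members were uneven: mt-Nd2 had 7469 against 2938 CPM (2.54, 2.51 to 2.58), mt-Cytb 7865 against 3793 CPM (2.07, 2.05 to 2.10) and mt-Co2 12175 against 6131 CPM (1.99, 1.97 to 2.01), while mt-Co1 had 23311 against 20131 CPM (1.16, 1.15 to 1.17) and mt-Nd6 was at 0.81. These first 3 were higher in 9 of 9 clusters, cluster 2 with its low mitochondrial share included. Nuclear-encoded subunits were lower in 24 of 30 cases (median -0.24), 3 past the fold, and 24 intervals lay below 1. Cox4i1 had 728 against 1196 CPM (0.609, 0.590 to 0.628) and Ndufa4 1021 against 1534 CPM (0.665, 0.648 to 0.683), both lower in 9 of 9. In clusters 5 and 7, nearly matched in depth, and in the less matched cluster 8, the mitochondrial list stood at -0.12, 0.07 and 0.46. The nuclear list stood at 0.04, 0.09 and -0.21 there. The mitochondrial share of a cell is itself the sum of the mitochondrially encoded transcripts. The nuclear list was lowest in cluster 2, at -0.40, where the mitochondrial list was also lower. Of the 32 ribosomal protein and elongation factor genes, 21 were higher and 11 lower (median 0.07), with Rpl4 at 272 against 176 CPM (1.55, 1.45 to 1.65) and Rps2 at 808 against 575 CPM (1.40, 1.35 to 1.46), both higher in 9 of 9.

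Major urinary proteins, pheromone carriers that the liver secretes under growth hormone and androgen control, were lower in sum and split by gene. Their summed level was 5576 against 9336 CPM. Mup3 made up most of it, at 3660 against 6519 CPM (0.561, 0.554 to 0.569), and Mup17 followed at 1269 against 2243 CPM (0.566, 0.553 to 0.579), both lower in 9 of 9 clusters. By contrast, Mup9 had 52.6 against 12.1 CPM (4.35, 3.52 to 5.42), higher in 8 of 8, and Mup12 39.2 against 20.1 CPM (1.95, 1.63 to 2.35), higher in 8 of 8. Of the 13 measured genes 7 were higher and 6 lower (median 0.06), and the medians were 0.97, 0.85 and 0.61 in clusters 5, 7 and 8 and -0.83 in cluster 6. Most of these genes are near copies in 1 array, and reads can be assigned to the wrong copy, so values of single members are uncertain. Mup9 had between 1.79 and 21.6 times the CPM over clusters, the highest in cluster 7.

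Genes on one side of 1 in every hepatocyte cluster measured were ranked by the interval bound nearest to 1, and the 12 highest and 12 lowest were taken, and 23 of these genes are shown by cluster.

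**Figure D3:**
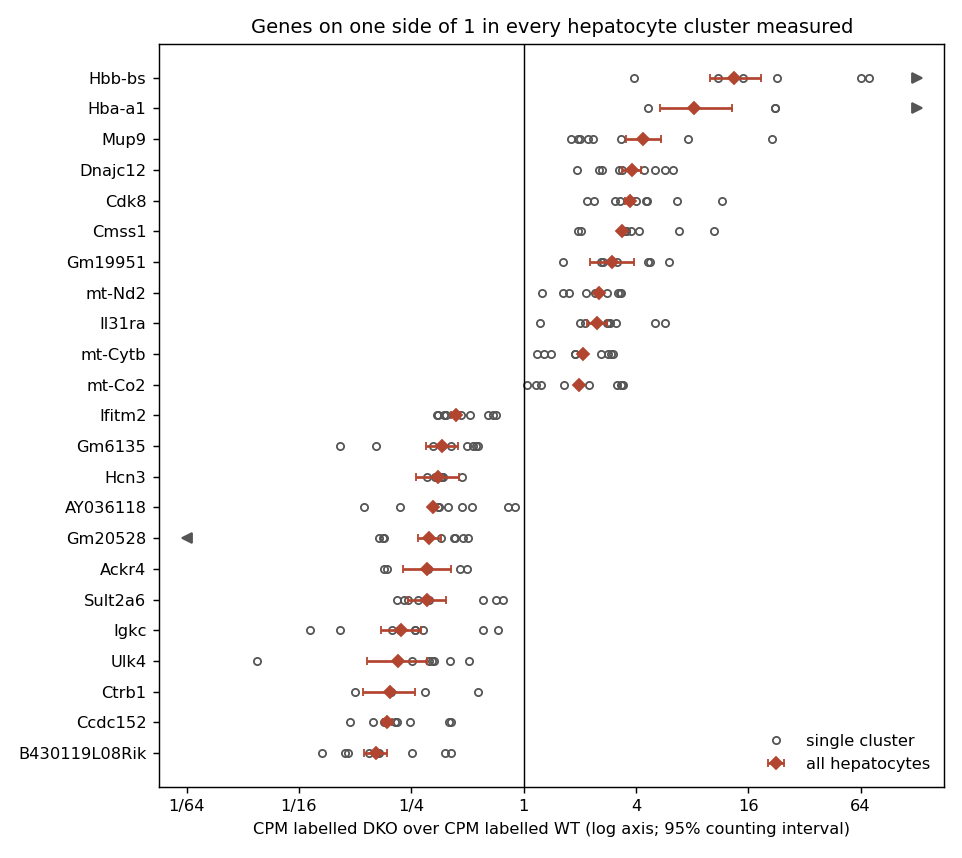
Ratio of CPM labelled DKO over CPM labelled WT (log axis) for 11 of the 12 highest genes and the 12 lowest: diamonds with 95% counting intervals for all hepatocytes, circles for single clusters, triangles at the edge for clusters with 0 UMIs in 1 library. Dnajc12 and Il31ra lie right of 1 in all 9 clusters, Ccdc152 and B430119L08Rik left of it in all 9.

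The highest of the 12 were not all hepatocyte transcripts. The haemoglobin genes Hbb-bs and Hba-a1 had 69.1 against 5.13 CPM (13.5, 9.94 to 18.7) and 22.5 against 2.74 CPM (8.22, 5.37 to 13.1). Of the 633 Hbb-bs UMIs in hepatocytes labelled DKO, 323 lay in 3 cells. The erythroid marker list summed to 127 against 21.1 CPM in the class, with 8 and 6 of its 9 genes detected and Slc4a1 at 0 UMIs. The left-out cluster 14, led by erythroid genes, held 121 against 16 cells. The part of erythroid RNA in the result was not tested. Cdk8, the gene of a Mediator kinase, had 643 against 174 CPM (3.70, 3.50 to 3.92) and Cmss1 had 4316 against 1277 CPM (3.38, 3.31 to 3.45). Both genes are in the group called ribosomal RNA-linked above, with Gm42418, and both are among those shifted in every cell class below.

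Dnajc12 and Il31ra were higher in 9 of 9 clusters. Dnajc12 (chromosome 10, 63382443 to 63410576 on GRCm38, + strand, overlapped by no other annotated gene), a co-chaperone of the aromatic amino acid hydroxylases, had 1353 against 342 UMIs in hepatocytes, or 148 against 39.0 CPM (3.79, 3.36 to 4.28). Its ratio ran from 1.93 in cluster 2 to 6.28 in cluster 1, and it was 0.864 outside hepatocytes, on 35 against 17 UMIs. No cell held more than 8 of its UMIs. Il31ra, a subunit of the interleukin 31 receptor, had 101 against 41.1 CPM (2.46, 2.17 to 2.78), from 1.22 in cluster 6 to 5.75 in cluster 7, and 4.01 outside hepatocytes.

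Among the 12 lowest were genes of other cells and genes that lie under a stronger neighbour. Ctrb1, a pancreatic protease, had 5.24 against 27.4 CPM (0.191, 0.137 to 0.262), and Igkc, the immunoglobulin kappa constant region, 9.06 against 41.1 CPM (0.221, 0.172 to 0.281). Outside hepatocytes Igkc had 9307 against 21674 UMIs (0.180). The acinar list summed to 81.4 against 188 CPM in the class and plasma cell genes to 142 against 129 CPM. The acinar-led cluster 16, left out of the class, held 40 against 6 cells, and the plasma cell-led cluster 17 held 14 against 21. The part of such cells in these ratios was not tested. Ifitm2, an antiviral membrane protein, had 197 against 455 CPM (0.434, 0.410 to 0.459) and Sult2a6, a sulfotransferase, 10.9 against 35.9 CPM (0.304, 0.240 to 0.382).

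Among the 12 lowest was also Ccdc152 (chromosome 15, 3280070 to 3303526, - strand), whose 3′ end meets that of Selenop (chromosome 15, 3268547 to 3280508, + strand), the plasma selenium carrier. Ccdc152 had 1324 against 6805 UMIs, or 145 against 776 CPM (0.186, 0.175 to 0.198), lower in 9 of 9 clusters and at 0.168 outside hepatocytes. Selenop had 2685 against 2222 CPM (1.21, 1.19 to 1.23). AY036118 (chromosome 17, 39847113 to 39848035, - strand) lies within Gm42418 (39846958 to 39848788, + strand) and had 1218 against 3721 CPM (0.327, 0.320 to 0.335), while Gm42418 had 38878 against 23346 CPM (1.67, 1.66 to 1.67). Hcn3, an ion channel gene that overlaps Pklr on the opposite strand, was at 0.347 (0.266 to 0.449), and Pklr at 1.11 (0.966 to 1.27). In each of these pairs the gene with fewer UMIs was lower and its partner was not. The sources used here do not give whether counting used strand, so the UMIs of such pairs cannot be assigned with certainty.

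That pattern, chosen after these values were seen, was then counted over all genes placed by the GENCODE vM21 annotation, for partners with a large excess of UMIs. Of the pairs above, AY036118 meets this rule, while Ccdc152 and Hcn3 do not. Of the 12 lowest genes, 3 meet it, AY036118 among them, and these were kept in the counts that follow. Of 121 measured genes overlapped on the opposite strand by a gene with at least 10 times their UMIs, 31 (25.6%, 18.1 to 34.4) were lower past the fold, against 188 of 8093 other genes (2.32%). Higher past the fold were 3 (2.48%) against 182 (2.25%). The median log2 ratio was -0.18 against 0.00, and that of the 118 partner genes -0.04. Overlapped genes had fewer UMIs, with a median of 156 against 511 for the others, and low counts scatter more in both directions. Named examples are Egfros, antisense to Egfr, at 4.26 against 13.8 CPM (0.309, 0.209 to 0.446) with its partner at 0.825, and Dnase2b, a nuclease gene under the urate oxidase gene Uox, at 31.2 against 64.8 CPM (0.482, 0.417 to 0.557) with Uox at 0.971. Sardhos, antisense to the sarcosine dehydrogenase gene Sardh, was at 0.417 (0.270 to 0.632) and Sardh at 1.16.

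By cluster, the overlapped genes had the lower median in 8 of 9 clusters, from -0.94 against -0.11 in cluster 4 to -0.07 against -0.04 in cluster 2. Cluster 5 was the exception, with 0.04 against 0.01. Outside hepatocytes, 16 of the 31 overlapped genes lower past the fold had at least 20 UMIs, and 4 of these 16 were below 1 there. The same count over all genes is not given, and the mix of cell types there differed between the libraries. No contrast with hepatocytes can therefore be drawn from it. With such a partner on the same strand instead, 2 of 10 genes were lower past the fold (20%, 2.52 to 55.6).

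**Figure D4:**
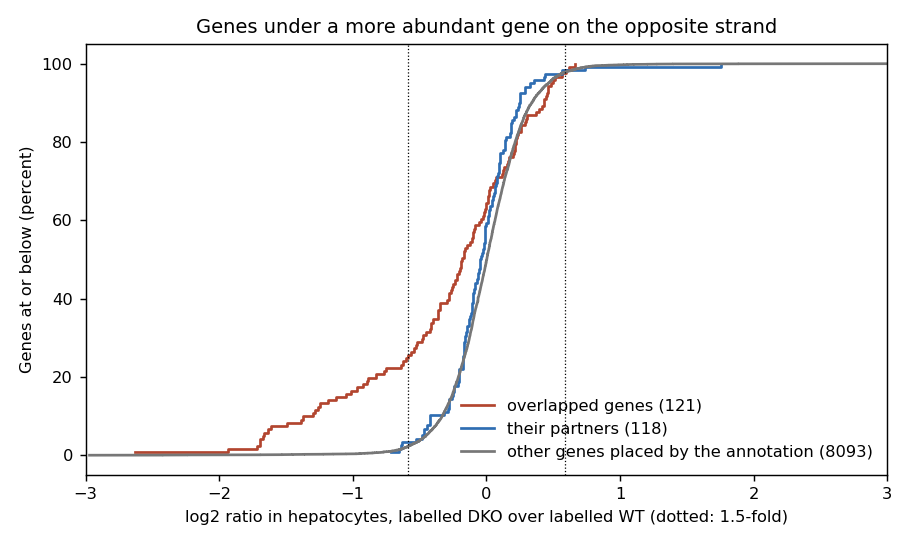
Cumulative share of genes (percent) by log2 ratio in hepatocytes for genes overlapped on the opposite strand by a gene with at least 10 times their UMIs, for those partner genes and for all other genes placed by the annotation; dotted lines mark 1.5-fold. The curve of the overlapped genes leaves the others on the lower side, where 25.6% lie past the fold, and meets them on the higher side.

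Some genes were shifted in all 6 cell classes. Of 592 genes with at least 20 UMIs in each class, 7 were past 1.5-fold higher and 18 past 1.5-fold lower in every one. Among the 7 were Gm42418, Cmss1, Cdk8, Camk1d, Lars2 and Gphn. Gm42418 ran from 1.67 in hepatocytes to 3.92 in T cells, Cmss1 from 3.38 to 8.62, and Cdk8 from 3.70 in hepatocytes to 25.3 in neutrophils. Among the 18 were Mup3 (0.342 to 0.561) and Cpb2 (0.208 to 0.527), which hepatocytes make, the respiratory subunits Ndufa4 (0.317 to 0.665), Cox4i1 (0.379 to 0.619) and Cox5a (0.363 to 0.656), the peroxidase Prdx1 (0.387 to 0.580) and the antiviral genes Ifitm2 (0.263 to 0.601) and Ifitm3 (0.303 to 0.664). The smallest shift of each of the 6 named higher genes was in hepatocytes. CPM adds up to a fixed total, and Gm42418 alone took 38878 against 23346 CPM in hepatocytes and 134715 against 36232 CPM in the Kupffer type. With mitochondrially encoded and ribosomal RNA-linked genes left out of the totals, the median log2 ratio of all hepatocyte genes moved to 0.09.

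**Figure D5:**
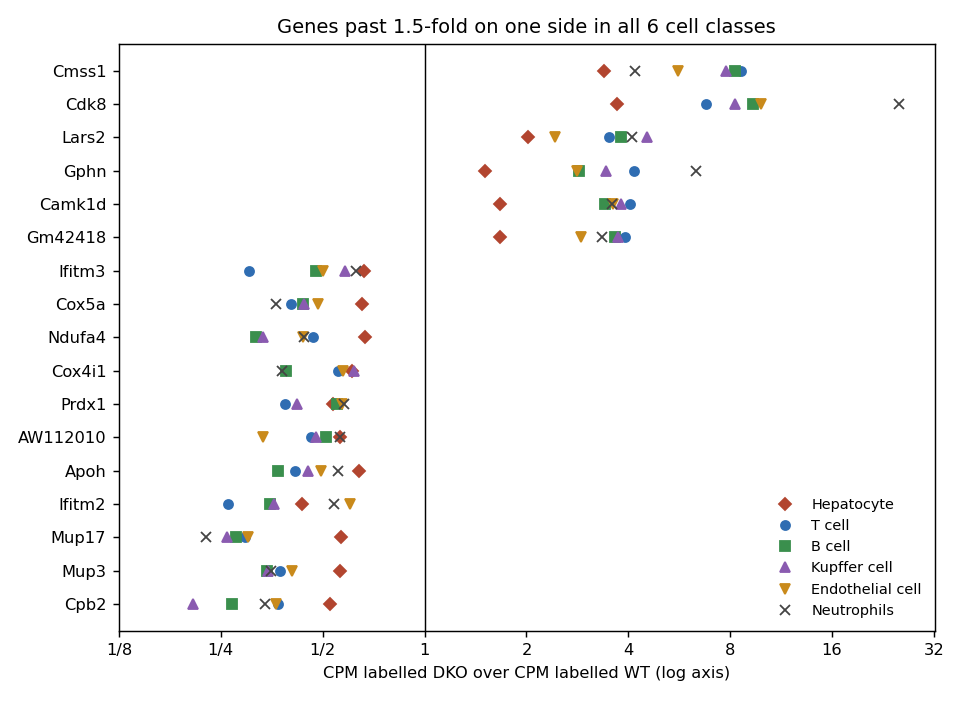
Ratio of CPM labelled DKO over CPM labelled WT (log axis) in 6 cell classes for 6 of the 7 genes higher and 11 of the 18 genes lower past 1.5-fold in all of them. Diamonds, for hepatocytes, are the nearest to 1 in each of the 6 higher genes shown.

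Transcripts that hepatocytes make were also lower inside the other types. Alb, the albumin gene, was at 37794 against 44388 CPM in hepatocytes (0.851, 0.848 to 0.855), but in T cells it stood at 0.482 (0.466 to 0.498), in B cells at 0.538 (0.511 to 0.566), in the Kupffer type at 0.496 (0.474 to 0.518), in endothelial cells at 0.672 (0.640 to 0.706) and in neutrophils at 0.568 (0.523 to 0.618). Pericentral genes were lower in 16 of 16 measured cases in T cells (median -0.97) and in 13 of 14 in endothelial cells (-1.21). Periportal genes were lower in 19 of 20 cases in T cells (-0.84), but in endothelial cells 10 of 15 were higher (0.09). Free RNA was not measured. The summed hepatocyte markers in T cells were 28217 against 61837 CPM, and their part in what follows was not tested.

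In T cells, Ccl5, Cxcr6 and Nkg7 were lower in the library labelled DKO. Of 3382 genes with at least 50 UMIs, 519 (15.3%) were higher and 619 (18.3%) lower past the fold, together 33.6%. Ccl5, a chemokine of effector cells, had 1217 against 2432 CPM (0.5003, 0.450 to 0.557), and Cxcr6, a homing receptor of liver-resident T cells, 84.7 against 207.7 CPM (0.408, 0.275 to 0.607). Nkg7, a cytotoxic granule protein, was at 0.622 (0.490 to 0.794). The proliferation marker Mki67 had 39 against 0 UMIs, and Top2a 29 against 0. Both fall below the minimum of 50 UMIs and are not among the 3382 genes. The Mki67 level was 4.10 times a floor of 3 counts, which is not a lower bound on its ratio. Mki67 was detected in 3.1% (1.6 to 5.4) of T cells from the DKO library. In the WT library the share was 0% (0 to 4.2), so the intervals overlap. Those 39 UMIs lay in 12 cells, 25 of them in 3. Markers of NK and innate lymphoid cells, Nkg7 among them, summed to 859 against 956 CPM. Defining T cell markers were level, at 3246 against 3125 CPM in sum. The haemoglobin transcript Hbb-bs had 442 against 1 UMIs in T cells, and 409 of the 442 lay in 1 cell.

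B cells of cluster 11, 271 against 31, had 371 of 1798 genes (20.6%) higher and 362 (20.1%) lower past the fold, together 40.8%. MHC class II genes, which B cells use to present antigen, were higher, with H2-Ab1 at 1004 against 639 CPM (1.57, 1.16 to 2.18), H2-Aa at 1.48 (1.16 to 1.92) and Cd74 at 1.21 (1.04 to 1.41). Of 10 measured MHC genes 9 were higher (median 0.56). B cell markers summed to 3814 against 2804 CPM and hepatocyte markers to 33360 against 66476 CPM, and their part in this was not tested. Ighm, the heavy chain of IgM, was at 1.92 (1.43 to 2.64). Ribosomal proteins were lower in 28 of 32 cases (median -0.37), with Rpl15 at 766 against 1471 CPM (0.520, 0.417 to 0.653). Smyd3, a methyltransferase, had 209 against 4 UMIs (8.48, 3.26 to 31.4). The 31 cells labelled WT give 72041 UMIs in all, which sets how finely these ratios can be read.

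The cells called Kupffer were a mixture, and the mixture differed. Their leading genes included Lyz2 of monocytes, Dcn of stellate cells and fibroblasts, and Cd5l of Kupffer cells. Of 1094 genes, 206 (18.8%) were higher and 315 (28.8%) lower past the fold, together 47.6%. Clec4f, a lectin of resident Kupffer cells, had 105 against 325 CPM (0.323, 0.184 to 0.553), and Cd5l 239 against 794 CPM (0.301, 0.211 to 0.425). These counts came from few cells, 5 against 8 for Clec4f and 8 against 12 for Cd5l. Csf1r, the receptor that macrophages need, had 220.0 against 113 CPM (1.94, 1.06 to 3.74), and Lyz2 1578 against 1029 CPM (1.53, 1.25 to 1.89). Monocyte and dendritic markers summed to 2046 against 1278 CPM, T cell markers to 607 against 166 CPM and Kupffer markers to 1549 against 2254 CPM. Their part in the ratios was not tested. Prtn3, a granule protease of immature myeloid cells, had 98 against 0 UMIs, all 98 in 1 cell. Hbb-bs had 7 against 289 UMIs, and all 289 lay in 1 cell. Siglech, of plasmacytoid dendritic cells, had 18 against 0 UMIs in 3 cells, which is below the minimum of 50 UMIs.

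Endothelial cells showed the mitochondrial difference most evenly over genes, and its spread over cells was not tested. Of 701 genes, 68 (9.70%) were higher and 201 (28.7%) lower past the fold, together 38.4%. At any size, 449 of the 701 were lower, with a median log2 ratio of -0.22. All 11 measured mitochondrially encoded genes were higher (median 1.11), with mt-Nd2 at 3044 against 958 CPM (3.18, 2.55 to 3.98), and all 20 nuclear subunits were lower (median -0.78). The median mitochondrial share of UMIs per endothelial cell was closer, at 1.71% against 1.44%. The sinusoidal scavenger receptor gene Stab2 stood at 1464 against 976 CPM (1.4997, 1.17 to 1.92). Pomp, a proteasome assembly factor, had 116 against 578 CPM (0.201, 0.104 to 0.363). Endothelial markers summed to 6579 against 4953 CPM and hepatocyte markers to 56459 against 91727 CPM.

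In neutrophils, 51 against 17 cells, 26 of 273 genes (9.52%) were higher and 79 (28.9%) lower past the fold, together 38.5%. Il1b, the inflammatory cytokine, had 1952 against 873 CPM (2.24, 1.49 to 3.46). Retnlg, a resistin-like gene of mature neutrophils, was at 0.661 (0.553 to 0.792), and Ifitm1 at 0.324 (0.208 to 0.499). The calgranulin genes S100a8 and S100a9 were at 0.796 (0.726 to 0.873) and 0.918 (0.843 to 1.0002). All 6 measured mitochondrially encoded genes were lower (median -0.87), the opposite side from hepatocytes and endothelial cells. Of all 273 genes measured in neutrophils, 175 were lower (median -0.25).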

How the data were processed

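Single-cell UMI counts of 2 liver libraries were used. Cell Ranger 7.1.0 and mm10 are named per the submitters' processing notes, and the deposited table holds unnormalized UMI counts of 18307 genes, with each cell's library, cluster, type and subtype; the other metadata columns (24) were not used. The deposited metadata also hold the mitochondrial percent per cell. The sources used here do not give whether counting used strand. Cells were used as deposited, and no doublets were called.

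Counts were summed per class and library and scaled to CPM. Ratios carry exact conditional binomial 95% intervals, shares exact Clopper-Pearson intervals, and a count of 0 is set against a floor of 3 counts. All cover counting error only. Genes needed 100 UMIs over both libraries in hepatocytes and 50 in other types, and past the fold means 1.5-fold. Hepatocytes leave out clusters 14, 16 and 18, and B cells leave out the plasma cell-led cluster 17. Named genes are each list's key genes, up to 4 further members farthest from 1 by the interval bound, the 12 highest and 12 lowest hepatocyte genes on 1 side in every cluster with 50 cells per library, and up to 6 each way in other types. Values of some list members and named genes are not reported here. Members and lists (22 gene lists, 14 marker lists) were chosen with earlier results of these data known. Alternatives changed the scaling, minimum counts, cell weights, cells used and denominators. Scripts, tested on simulated data, used Python 3.11.15, numpy 2.4.6, pandas 2.3.3, SciPy 1.17.1 and matplotlib 3.10.9. Coordinates are from GENCODE vM21 (GRCm38), promoters from RefSeq (GRCm38.p6).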

Additional observations from a re-analysis of the deposited data

Results flagged for a closer look

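Haemoglobin transcripts lay on opposite sides of 1 in 2 cell types. Hbb-bs had a ratio of 13.5 in hepatocytes and 0.0153 in the Kupffer type, and Hba-a1 had 8.22 and 0.0383. In the Kupffer type all 289 Hbb-bs UMIs labelled WT lay in 1 cell. In hepatocytes labelled DKO 208 cells held 633 UMIs. The difference between the types was not tested.

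Mitochondrially encoded transcripts had a median log2 ratio of 1.11 in endothelial cells (11 of 11 higher) and -0.87 in neutrophils (6 of 6 lower), and this difference was not tested either. The neutrophils numbered 51 and 17. Over all genes measured, the medians were -0.22 in endothelial cells and -0.25 in neutrophils.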

How the results depend on the processing

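No paired analysis was possible because each group has 1 library. Of the alternatives for named hepatocyte genes, 1193 values stayed inside the gene's interval and 347 moved further. A change of side was counted only for genes past 1.5-fold in the main setting, and 0 were found. Named genes of other types were not run. In hepatocytes, the 189 higher and 223 lower genes became 328 and 137 with mitochondrial and ribosomal RNA-linked genes left out of the totals, 1341 and 1683 at 1 UMI in each library, 47 and 96 at 500 UMIs, and 319 and 368 with every cell weighted alike. In clusters 5, 7 and 8 alone, lower genes numbered 98, and the medians turned to 0.15 for apolipoproteins and 0.16 for MHC genes (0.052 at 1 UMI in each library). Over cells outside the hepatocyte type, ratios of shares were 1.38 for T cells, 1.68 for B cells, 0.629 for the Kupffer type, 0.350 for endothelial cells and 0.920 for neutrophils; over cells with at least 500 genes the Kupffer ratio was 1.32. At 100 UMIs, higher and lower genes numbered 228 and 317 in T cells, 146 and 160 in B cells, 59 and 155 in the Kupffer type, 24 and 107 in endothelial cells, and 11 and 35 in neutrophils. Scaled over genes at least as high as in hepatocytes, they numbered 204 and 358, 184 and 238, 63 and 165, 21 and 89, and 12 and 46, in the same order. With a partner of at least 3 times the UMIs, an alternative chosen after seeing the data, 17.8% of overlapped genes were lower past the fold. Higher minimums test fewer genes. The cause of the other shifts was not tested.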

Other observations

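Nuclear-encoded respiratory chain genes were lower in the library labelled DKO in nearly every measured case outside hepatocytes too: 27 of 29 in T cells (median log2 ratio -0.66), 22 of 23 in B cells (-0.92), 24 of 24 in the Kupffer type (-0.75) and 3 of 3 in neutrophils (-1.18). Over all genes measured, 1670 of 3382 were lower in T cells (median 0.01) and 897 of 1798 in B cells (0.01). In the Kupffer type 607 of 1094 were lower (-0.12), and in neutrophils 175 of 273 (-0.25). Mitochondrially encoded genes shared this side only in part. They were split in T cells, with 6 of 12 lower (median -0.06), and in B cells, with 6 of 11 lower (-0.03). In the Kupffer type 9 of 11 were lower (-0.23) and in neutrophils 6 of 6 (-0.87), while in endothelial cells 11 of 11 were higher (1.11). Ribosomal protein genes differed in direction between types, with 28 of 32 higher in the Kupffer type (median 0.42) and 27 of 32 lower in endothelial cells (-0.26). Of all genes measured in endothelial cells, 449 of 701 were lower (median -0.22), so the ribosomal median there was near that of the class. Summed hepatocyte markers were lower in each of these types, at 33360 against 66476 CPM in B cells and 41736 against 77085 CPM in neutrophils, and their part in these values was not tested.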
